A study of Nasonia vitripennis with 140 samples.

Results

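Dsx, Tra and Fru are the 3 genes of the sex-determination pathway followed here, out of the 15471 genes of a table of read counts from the parasitoid wasp Nasonia vitripennis. They were chosen by name: each is 1 row of the table, and all 3 were detected in every library, with 1695 to 43379 reads for Dsx, 1319 to 36505 for Tra and 1146 to 26496 for Fru. Levels are given throughout in CPM, the count of a gene scaled to the same total for every library. The lengths of the counted transcripts were not used here, so levels are compared between groups for 1 gene and never between genes.

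The wasps were of the laboratory strain AsymCX. RNA interference (RNAi), in which injected double-stranded RNA directs the breakdown of a matching messenger, was aimed at dsx (dsx-RNAi) or at the absent gene GFP (GFP-RNAi, the control), with 4 µg/µl of RNA. Males and females were taken as larvae at day 7 (injected at day 4) and day 9 (injected at day 6), as pupae at day 11 (injected at day 8), and as adult heads, thoraces and abdomens after injection at day 8. Embryos, 1 day old, were not injected: their mothers were, at day 8, and female embryos came from mothers mated with uninjected males, whose broods are 90 to 95% female, so that the female embryo pools can hold some males, while male embryos came from virgin mothers. With 5 libraries in each of the 28 groups there were 140 in all. A library is a pool of 100 embryos, of 3 larvae or pupae, or of the body parts of 7 adults collected 1 day after emergence. Replicates are separate pools, and males are haploid where females are diploid.

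In insects, Transformer (Tra) is a splicing regulator that is made in active form in females, where in Nasonia it also keeps up its own female splicing after a start from maternal messenger. Doublesex (Dsx) is a transcription factor, and its transcript is spliced to a female form in the presence of active Tra and to a male form without it. Fruitless (Fru) is a second transcription factor with sex-specific splicing under Tra, known in Drosophila for its role in male courtship neurons. Counts per gene add up all splice forms, so the male and female forms were not separated. The RefSeq annotation of the assembly Nvit_psr_1.1 lists 8 transcripts for Dsx, 2 for Tra and 16 for Fru. In that annotation no other gene overlaps Dsx, 8 protein-coding genes overlap Tra, and 4 genes overlap Fru, of which 2 are long non-coding RNAs, so that part of the Tra and Fru counts is uncertain.

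Libraries held 59161676 to 112899836 reads counted in genes, with a median of 74785781. The targeted gene did not go with its label: the level of Dsx was not lower in any dsx-RNAi group by the edgeR test. The groups are therefore called dsx-labelled, and all directions between the labels depend on that labelling. Of the marker genes sought by symbol, only nanos, a germline gene listed for embryos, was matched. Those for body parts (opsin, Orco, flightin, vitellogenin and tektin) were not. Over both sexes nanos had 0.0567 to 209 CPM in abdomens (median 76.9) and 0.764 to 28.4 CPM in embryos (median 2.40). In heads and thoraces it had at most 5.65 CPM. It thus did not mark embryos, and its abdomen range reached down into that of heads and thoraces. The odorant receptor gene Or1, looked up after the values were seen, stood at 178 to 379.8 CPM in heads and at 0.0513 to 21.1 CPM in thoraces and abdomens. Among the heads, male GFP replicates 1 and 2 and male dsx-labelled replicate 1 stood apart from the other male heads on the first principal component of the deviations within groups, which held 54.6% of that variance.

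Differences were tested with edgeR's quasi-likelihood test, with TMM scaling and p-values adjusted over all genes tested, and a difference counts as called where its adjusted p was below 0.05. Differences within a stage come from a fit of its 20 libraries, and those between stages from a fit of all 140. Beside it stands a two-sided exact permutation test on log2 CPM, whose smallest p with 5 against 5 libraries is 0.00794. A call is said to be lost without a replicate where it failed in a fit that left out that replicate number from every group, with 4 libraries each. TMM scaling holds the bulk of genes level, whereas CPM does not: between GFP males and females, the median log2 fold change of all genes was -0.36 in abdomens and 0.20 at day 7 with column totals, against 0.01 for both with TMM. A fold change given below is the TMM value on the log2 scale unless column totals are named.

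Tra was lower in every male library than in any female library of the same stage and label. In embryos its level was 28.9, 27.6, 37.6, 38.4 and 34.1 CPM in the 5 GFP male pools, against 139, 211, 133, 182 and 171 CPM in the GFP female pools. In heads it was 35.1, 35.6, 57.6, 57.6 and 58.4 CPM in GFP males, against 334, 382, 350.1, 488 and 395 CPM in GFP females. At both stages the highest male library lay well under the lowest female one, with the 2 low male heads being those that stood apart. The sex difference was called at 7 of 7 stages in GFP wasps and at 7 of 7 in dsx-labelled wasps, all lower in males. In GFP wasps the share of all genes called between males and females was 0.0417% in embryos, 35.2% at day 7, 49.1% at day 9, 63.8% at day 11, 33.8% in heads, 37.1% in thoraces and, at the most, 86.8% in abdomens. In dsx-labelled wasps those shares were 5.1%, 20.8%, 33.4%, 61.9%, 30.6%, 26.2% and 86.5% in the same order of stages. Genes called lower in males, as Tra was, made up 0.025%, 15.6%, 22.3%, 32.2%, 16%, 19.6% and 44.1% in GFP wasps and 2.94%, 6.99%, 10.5%, 32.3%, 14.3%, 12.8% and 42.8% in dsx-labelled wasps. A call of Tra thus stands against few other calls in GFP embryos, and against calls of most genes in abdomens of either label.

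The size of the Tra difference changed with stage. In GFP wasps the log2 fold change of males over females was -2.41 ± 0.15 (SE) in embryos, -2.67 ± 0.05 at day 7, -3.04 ± 0.06 at day 9, -2.49 ± 0.05 at day 11, -2.90 ± 0.20 in heads, -2.44 ± 0.11 in thoraces and -1.88 ± 0.07 in abdomens. Without the 3 male heads that stood apart, the difference in heads was -2.65 in GFP wasps. Of the 6 steps tested between stages, 5 changed this difference in GFP wasps: it became larger in size between day 7 and day 9 (by -0.46, edgeR adjusted p = 0.0161) and smaller between day 9 and day 11 (by 0.63, adjusted p = 0.000364), was larger in heads than in thoraces (-0.47, adjusted p = 0.0147) and in heads than in abdomens (-1.29, adjusted p = 4.31e-13), and was smaller in abdomens than in thoraces (0.81, adjusted p = 1.07e-06). With column totals the last of these was 0.22 and was not called (edgeR adjusted p = 0.245). On log2 CPM the difference of Tra in GFP wasps was -3.02 in heads and -2.25 in abdomens. The change between day 7 and day 9 was not called with RLE size factors (-0.39, adjusted p = 0.0691), with DESeq2 or without replicate 3 or 5, nor that of heads against thoraces without replicate 1 or 2 or with only the groups compared in the fit (adjusted p = 0.147). The share of all genes called for such a change of the sex difference was 13.1% from embryo to day 7, 25.3% from day 7 to day 9, 38.4% from day 9 to day 11, 24.5% for heads against thoraces, 69.3% for abdomens against thoraces and 71.5% for heads against abdomens.

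**Figure D1:**
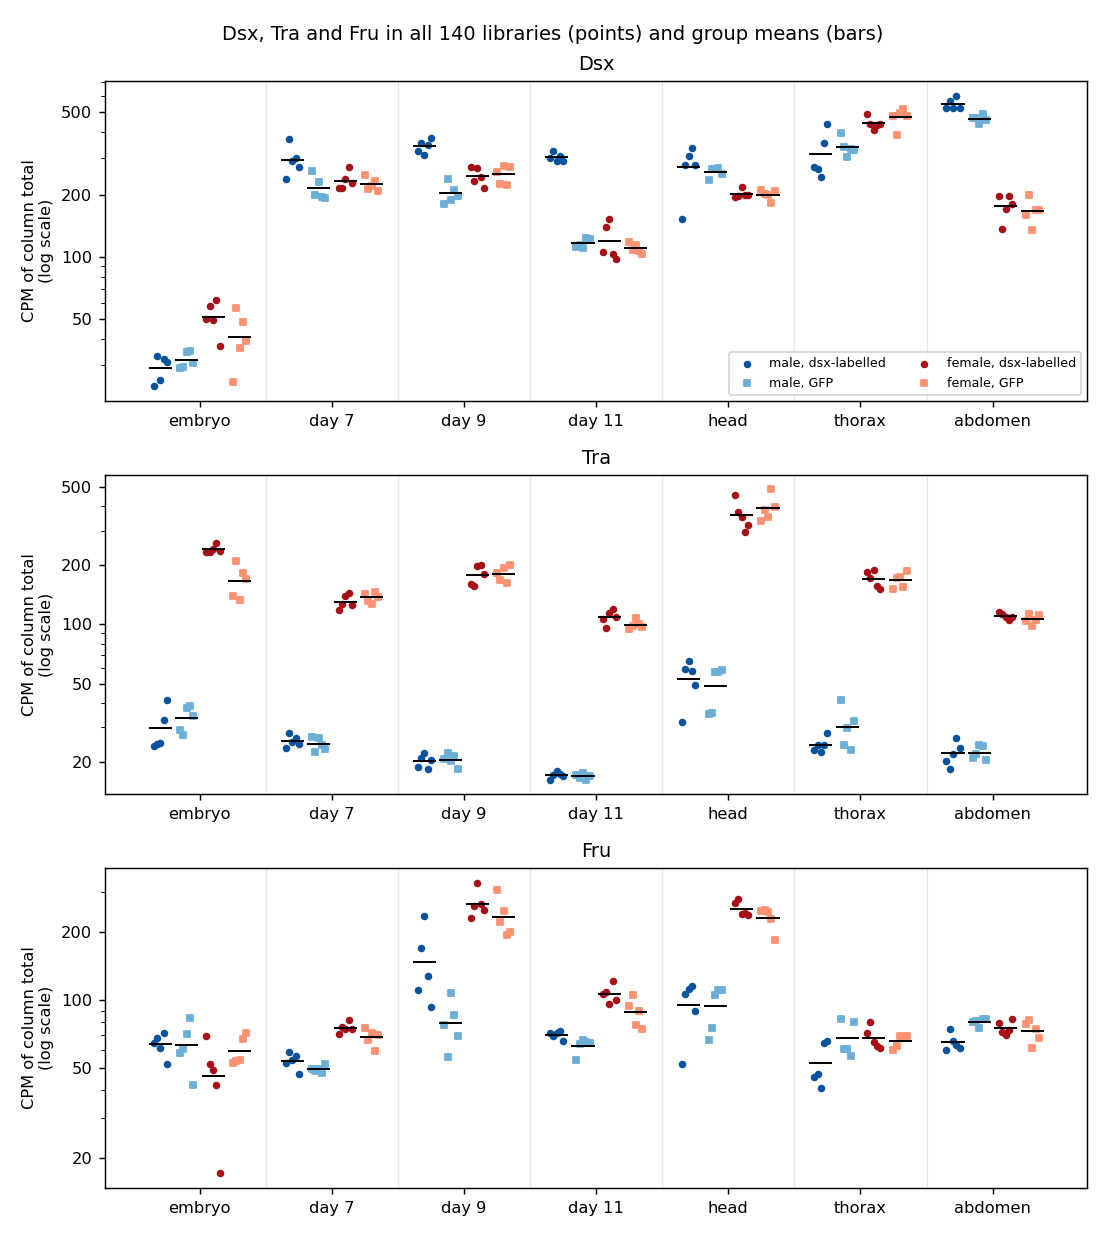
Level of Dsx, Tra and Fru (CPM of the column total, log axis) by stage or body part, with a point for each of the 140 libraries and a bar for the mean of each group of 5. Tra lies lower in males than in females at every stage, Dsx in abdomens lies higher in males, and Dsx at day 11 is 289 to 325 CPM in dsx-labelled males and 97.8 to 153 CPM in the other 3 groups.

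Over development Tra followed different courses in the sexes. In GFP males its mean level was 33.3 ± 4.92 CPM in embryos, 24.7 ± 1.82 at day 7, 20.6 ± 1.4 at day 9 and 16.9 ± 0.487 at day 11 (SD, n = 5 each). In GFP females it was 167 ± 32.2 CPM in embryos, 137 ± 7.77 at day 7, 181 ± 16.7 at day 9 and 99.6 ± 5.14 at day 11. The male day 11 libraries, at 17.1, 16.6, 17.5, 16.2 and 17.0 CPM, lay under all male day 9 libraries, at 20.7, 22.1, 20.2, 21.4 and 18.4 CPM. That last step depended on the scaling: its log2 fold change was -0.28 with column totals (adjusted p = 0.0313), where the median gene fell by 0.47, and 0.06 with TMM (adjusted p = 0.645). With only the groups compared in the fit, TMM gave 0.15, called as higher (adjusted p = 0.0151), so its direction was not settled. In GFP males Tra fell from embryo to day 7 (log2 fold change -0.63, edgeR adjusted p = 9.98e-08) and from day 7 to day 9 (-0.27, adjusted p = 0.0233, but 0.0687 with RLE size factors and 0.0545 with column totals). In GFP females it fell from embryo to day 7 (-0.31, adjusted p = 0.00702, lost without replicate 2, at -0.20, and with only the groups compared) and from day 9 to day 11 (-0.57, adjusted p = 1.51e-06), with a value of 0.19 from day 7 to day 9 (adjusted p = 0.124) that was 0.40 and called with column totals (adjusted p = 0.0024).

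In adults the level of Tra was highest in heads in all 4 groups of sex and label. GFP thoraces had 30.1 ± 7.27 CPM in males and 168 ± 14.4 CPM in females, and GFP abdomens 22.3 ± 1.78 CPM in males and 106 ± 5.82 CPM in females (SD, n = 5 each). Heads exceeded thoraces by a log2 fold change of 0.37 in GFP males (edgeR adjusted p = 0.00207, lost without replicate 4, at 0.23, and with only the groups compared) and 0.84 in GFP females (adjusted p = 2.02e-11), and abdomens lay under thoraces by -0.46 in males (adjusted p = 7.53e-05) and -1.28 in females (adjusted p = 7.21e-21). In the order of mean levels in GFP males, day 11 and day 9 did not overlap, while each of the other neighbours (day 9, abdomen, day 7, thorax, embryo, head) overlapped the next. In GFP females, day 11 overlapped abdomen, abdomen did not overlap day 7, day 7 overlapped embryo, embryo overlapped thorax, thorax overlapped day 9, and heads stood above all other groups.

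The steps between stages were called in a large share of all genes, so a called step of 1 gene is no rarity. In GFP males that share was 75.9% for day 7 against embryo, 59.1% for day 9 against day 7, 58.5% for day 11 against day 9, 57.8% for head against thorax, 70.3% for abdomen against thorax and 73.7% for head against abdomen. In GFP females it was 75.2%, 60.1%, 66.4%, 64.1%, 81.7% and 82% for the same steps. In dsx-labelled males it was 76.4%, 60.9%, 58.8%, 59.4%, 66.9% and 74.8%, and in dsx-labelled females 75.8%, 58.9%, 66.5%, 62.5%, 80.7% and 81.7%. Against these, 5 of 6 steps of Tra, 5 of 6 of Dsx and 2 of 6 of Fru were called in GFP males, and 5 of 6 of each gene in GFP females. In dsx-labelled males the numbers were 4 for each of the 3 genes, and in dsx-labelled females 6 for Tra, 5 for Dsx and 6 for Fru.

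Dsx was at its lowest in embryos and was several fold higher by day 7. GFP embryos had 31.7 ± 2.87 CPM in males and 41.1 ± 12.1 CPM in females, and GFP larvae of day 7 had 215 ± 29.2 CPM in males and 224 ± 16.4 CPM in females (SD, n = 5 each). The log2 fold change of day 7 over embryo was 2.56 ± 0.13 in GFP males (SE, edgeR adjusted p = 1.48e-37) and 2.42 ± 0.13 in GFP females (adjusted p = 9.54e-36), with no overlap of the libraries. The day 9 mean of 202 ± 22.6 CPM in GFP males and 250.0 ± 24.2 CPM in GFP females was not called against day 7 (adjusted p = 0.495 in males and 0.725 in females). At day 11 Dsx fell to 116 ± 5.94 CPM in GFP males (log2 fold change against day 9 -0.45, adjusted p = 0.000832) and to 109.9 ± 5.82 CPM in GFP females (-0.89, adjusted p = 2.1e-10). With column totals, where the median gene fell by 0.47 in males and 0.40 in females, the change was -0.80 in males and -1.19 in females.

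The body parts of adults set Dsx apart by sex. In GFP abdomens it stood at 467, 470.4, 438, 488 and 458 CPM in males, against 159, 198, 135, 168 and 169 CPM in females. In GFP thoraces it stood at 397, 338, 303, 332 and 328 CPM in males, against 482, 386, 498, 519 and 478 CPM in females. The abdomen libraries of the sexes did not overlap, and in thoraces only male replicate 1 reached above the lowest female library. In heads the levels were 257 ± 13.7 CPM in GFP males and 199.9 ± 10.9 CPM in GFP females (SD, n = 5 each), again without overlap. The highest mean lay in abdomens in males and in thoraces in females, in both labels.

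The log2 fold change of Dsx in GFP males over GFP females was 1.86 ± 0.09 in abdomens (SE, edgeR adjusted p = 6.42e-14), 0.45 ± 0.14 in heads (adjusted p = 0.0159) and -0.43 ± 0.15 in thoraces (adjusted p = 0.0285). Without the 3 male heads that stood apart, the value in heads was 0.49. Leaving out single replicates lost the call in heads without replicate 2, 3, 4 or 5 (adjusted p of at most 0.0835) and that in thoraces without replicate 1, 3 or 4 (at most 0.118). It was -0.21 at day 9 (adjusted p = 0.0254, lost without replicate 1, 3 or 5) and -0.25 at day 7 (adjusted p = 0.00678), where column totals gave -0.05 (adjusted p = 0.687) and the exact permutation test p = 0.532. Embryos (-0.45, adjusted p = 0.512) and pupae of day 11 (0.15, adjusted p = 0.237) were not called. The difference itself was more towards males in abdomens than in thoraces (2.54, adjusted p = 1.51e-26), in heads than in thoraces (0.88, adjusted p = 4e-05) and at day 11 than at day 9 (0.44, adjusted p = 0.0343), and less in heads than in abdomens (-1.67, adjusted p = 1.02e-15). The value between day 9 and day 11 was 0.38 and not called with column totals (adjusted p = 0.0837), with RLE size factors or with DESeq2, nor without replicate 2, 3, 4 or 5.

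Dsx in dsx-labelled wasps differed between the sexes at 7 of 7 stages. Of all genes, 5.1% were called in this comparison in embryos, 20.8% at day 7, 33.4% at day 9 and 61.9% at day 11. The shares were 30.6% in heads, 26.2% in thoraces and 86.5% in abdomens. Males were above females at day 7 (log2 fold change 0.21, edgeR adjusted p = 0.0316), day 9 (0.57, adjusted p = 4.08e-06), day 11 (1.36, adjusted p = 3.65e-09), in heads (0.52, adjusted p = 0.00798) and in abdomens (2.05, adjusted p = 1.63e-14). They were below females in embryos (-0.87, adjusted p = 0.0102) and in thoraces (-0.42, adjusted p = 0.0448). The calls at day 7, in embryos, heads and thoraces were each lost without some replicates, which left 3 to 6 of 7 stages called, and that at day 7 also with RLE size factors (adjusted p = 0.0525). In heads the libraries of the sexes overlapped (exact permutation p = 0.0952), because of the low male replicate 1. The embryo levels were 23.6, 33.1, 25.4, 32.0 and 31.1 CPM in dsx-labelled males, against 50.1, 57.9, 49.6, 62.1 and 36.9 CPM in dsx-labelled females, with no overlap, whereas GFP embryos overlapped. The test of a difference between the labels in embryos gave an interaction of -0.42 (adjusted p = 0.554).

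**Figure D2:**
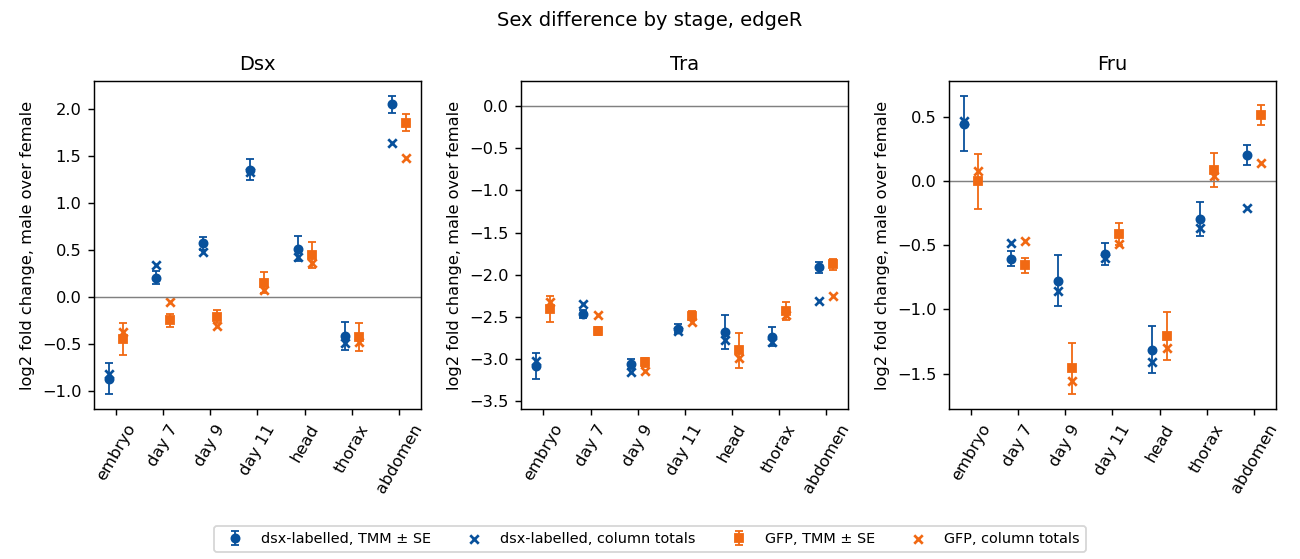
Log2 fold change of males over females (vertical axis) for Dsx, Tra and Fru by stage in dsx-labelled and GFP wasps, with points and bars for the TMM value and its SE and crosses for column totals. Tra is below 0 at every stage, Dsx reaches 2.05 and 1.86 in abdomens, and crosses and points of Fru in abdomens lie apart, at -0.21 and 0.20 in dsx-labelled wasps.

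Fru was higher in females than in males in larvae of day 9 and in heads, the groups with its highest mean levels in females. Its level at day 9 was 77.8, 56.1, 108, 85.9 and 69.5 CPM in GFP males, against 306, 221, 248, 194 and 201 CPM in GFP females. In heads it was 66.5, 75.2, 106, 111 and 110.5 CPM in GFP males, against 248, 250.1, 245, 229 and 184 CPM in GFP females. In both the sexes did not overlap, and the lower 2 male heads were again replicates 1 and 2. The log2 fold change of GFP males over GFP females was -1.46 ± 0.20 at day 9 (SE, edgeR adjusted p = 7.31e-06) and -1.21 ± 0.18 in heads (adjusted p = 4.82e-05). Without the 3 male heads that stood apart the value in heads was -0.98 in GFP wasps and, against -1.31 with all libraries, -1.15 in dsx-labelled wasps.

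Smaller sex differences of Fru were called at day 7 (log2 fold change -0.66, edgeR adjusted p = 5.04e-08) and day 11 (-0.41, adjusted p = 0.00035) in GFP wasps, and none in embryos (-0.0021, adjusted p = 0.999) or thoraces (0.08, adjusted p = 0.655). In GFP abdomens the call turned on the scaling. Levels there were 80.3 ± 2.82 CPM in males and 73.0 ± 8.34 CPM in females (SD, n = 5 each), and their libraries overlapped. TMM gave 0.51 (adjusted p = 4.81e-06), column totals 0.14 (adjusted p = 0.0875) and the exact permutation test p = 0.0873. In dsx-labelled abdomens, with 65.2 ± 5.82 CPM in males and 75.6 ± 5.08 CPM in females, TMM gave 0.20 (adjusted p = 0.0222) and column totals gave -0.21 (adjusted p = 0.0115, exact permutation p = 0.0317), so the direction was not settled. The other calls in dsx-labelled wasps were -0.61 at day 7, -0.78 at day 9, -0.57 at day 11 and the -1.31 in heads, making 5 of 7 stages in each label. The shares of all genes called by sex are those given with Tra above.

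The steps of Fru between stages differed between GFP males and GFP females. Fru rose from day 7 to day 9 by a log2 fold change of 1.55 in GFP females (edgeR adjusted p = 5.93e-16) and 0.67 in GFP males (adjusted p = 8.52e-05). By day 11 it fell by 1.11 in GFP females (adjusted p = 3.52e-10), to 88.4 ± 12.5 CPM, against a value of 0.01 in GFP males (adjusted p = 0.96), at 63.0 ± 5.03 CPM (SD, n = 5 each). Heads exceeded thoraces by 1.42 in GFP females (adjusted p = 2.76e-14), with 0.13 in GFP males (adjusted p = 0.502), a value that was 0.46 and called with column totals (adjusted p = 0.011). The tests of these differences between the sexes gave -0.88 for day 9 against day 7 (adjusted p = 0.000967), 1.12 for day 11 against day 9 (adjusted p = 1.04e-05) and -1.30 for head against thorax (adjusted p = 1.51e-06). With TMM all 6 steps were called for a change in the sex difference of Fru. The others were day 7 against embryo at -0.71 (edgeR adjusted p = 0.0148), abdomen against thorax at 0.68 (adjusted p = 0.00372) and head against abdomen at -1.98 (adjusted p = 2.12e-14). Of all genes, 13.1% (day 7 against embryo) to 71.5% (head against abdomen) were called for such changes, as given with Tra above. On log2 CPM the difference of Fru in GFP wasps was -1.32 in heads and 0.15 in abdomens. With column totals, day 7 against embryo (-0.55, adjusted p = 0.107) and abdomen against thorax (0.10, adjusted p = 0.741) were not called, and day 7 against embryo was lost also without replicate 1, 2, 3 or 4.

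In GFP males, by contrast, the mean levels of Fru ran from 49.6 ± 1.73 CPM at day 7 to 93.9 ± 21.3 CPM in heads, and apart from day 7 and day 11, which did not overlap, each group overlapped its neighbour in the order day 11, embryo, thorax, day 9, abdomen and head. In GFP females embryo, thorax, day 7, abdomen and day 11 overlapped in turn, from 59.8 ± 8.75 to 88.4 ± 12.5 CPM, and heads and day 9 overlapped each other at 231 ± 27.6 and 234 ± 45.6 CPM, clear of all the rest (SD, n = 5 each). The lowest value of Fru in all libraries was 17.2 CPM, in replicate 5 of the dsx-labelled female embryos, where the other 4 stood at 69.3, 52.3, 49.3 and 42.2 CPM. Being whole bodies or whole body parts, the samples do not tell apart fewer cells that use a gene and less RNA of it per cell.

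By label in males, Dsx was called at 4 of 7 stages, each time higher in dsx-labelled males. Whether reads of the injected dsx RNA were counted as Dsx was not tested, which bears on the levels of Dsx and on the ratios over Dsx in dsx-labelled groups. The shares of all genes called in this comparison were 0% in embryos, 4.1% at day 7, 3.41% at day 9, 1.06% at day 11, 8.92% in heads, 26.9% in thoraces and, highest of all, 39.3% in abdomens. The shares called higher in dsx-labelled males were 0%, 2.43%, 1.41%, 0.581%, 3.97%, 15% and 21.7% in the same order. At day 11 Dsx stood at 299, 325, 289, 309 and 289.6 CPM in dsx-labelled males, against 112, 114, 110.1, 123 and 122 CPM in GFP males. At day 9 it stood at 323, 356, 309, 349 and 377 CPM in dsx-labelled males, against 179, 237, 188, 211 and 196 CPM in GFP males. Neither stage had an overlap, and the lowest dsx-labelled pupa pool held more than all GFP pupa pools of both sexes. At day 7 the groups overlapped in CPM, with 239, 372, 292, 299.9 and 272 CPM in dsx-labelled males, against 260.5, 199.7, 229.6, 195 and 192 CPM in GFP males. Log2 fold changes of dsx-labelled over GFP males were 0.47 at day 7 (edgeR adjusted p = 0.000478), 0.72 at day 9 (adjusted p = 1.07e-05) and 1.32 at day 11 (adjusted p = 1.16e-06), and 0.27 in abdomens (adjusted p = 0.0186). The call in abdomens was lost with RLE size factors (adjusted p = 0.0597) and without replicate 1, 4 or 5.

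The size of this difference was then compared between ages, a comparison added after the values were seen. The effect of the label in males was larger at day 11 than at day 7 by 0.86 (SE 0.17, edgeR adjusted p = 0.003), where 0.168% of all genes were called; without replicate 3 it was 0.84 and not called (adjusted p = 0.0647). Between day 9 and day 11 it differed by 0.60 (adjusted p = 0.0844) and between day 7 and day 9 by 0.26 (adjusted p = 1), neither of them called, with 0.503% and 0.423% of all genes called. With only the groups compared in the fit, the value between day 9 and day 11 was 0.62 and called (adjusted p = 0.00529). The levels in dsx-labelled males were 295 ± 49.1 CPM at day 7, 343 ± 27 CPM at day 9 and 302 ± 15.2 CPM at day 11 (SD, n = 5 each). The step from day 9 to day 11 was 0.15 there with TMM (adjusted p = 0.287) and -0.18 with column totals, neither called, and 0.26 with only the groups compared, called as higher (adjusted p = 0.00814). As each age was injected 3 days before collection, age and the time of injection cannot be told apart.

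The label made no called difference to Tra in male larvae or pupae, and to Fru at day 9 alone. Tra had 17.1 ± 0.659 CPM in dsx-labelled and 16.9 ± 0.487 CPM in GFP male pupae of day 11 (SD, n = 5 each), and its log2 fold change was -0.04 (edgeR adjusted p = 0.941). Fru there had 70.4 ± 2.9 CPM in dsx-labelled and 63.0 ± 5.03 CPM in GFP males, a value of 0.09 (adjusted p = 0.884). On log2 CPM the exact permutation test of Fru gave a difference of 0.16 with p = 0.0159, and these groups overlapped. At day 9 Fru was higher in dsx-labelled males, with 111, 170.4, 235, 128 and 93.4 CPM, against 77.8, 56.1, 108, 85.9 and 69.5 CPM in GFP males (0.84, adjusted p = 0.0254), and the groups overlapped. This call was lost without replicate 1, 2, 3 or 4 (0.68, adjusted p = 0.114 without replicate 2) and with only these 2 groups in the fit (adjusted p = 0.0803). In abdomens Fru was lower in dsx-labelled males, at 60.5, 75.0, 65.9, 63.4 and 61.5 CPM, against 80.4, 80.8, 75.5, 82.3 and 82.4 CPM in GFP males (-0.27, adjusted p = 0.00957), with no overlap, since 75.0 lies just under 75.5. That call was lost without replicate 1 or 4 (adjusted p = 0.0721 without replicate 4).

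In thoraces both Tra (log2 fold change -0.30, edgeR adjusted p = 0.0354) and Fru (-0.37, adjusted p = 0.0458) were called lower in dsx-labelled males. Their libraries overlapped, the exact permutation tests gave p = 0.0952 for Tra and 0.0794 for Fru, and neither was called with column totals (adjusted p = 0.0856 and 0.0553). The thorax level of Tra in GFP males was set apart by replicate 1, at 41.2 CPM where the other 4 had 24.3, 29.8, 23.0 and 32.2 CPM, and without replicate 1 of every group the value of Tra was -0.17 (adjusted p = 0.238). Both calls were lost also without replicate 2 or 3. For heads, 0 of the 3 genes were called by label in males with edgeR or DESeq2, and 0 had an unadjusted p below 0.05. Dsx in dsx-labelled male heads was 153, 277, 309, 335 and 278 CPM, against 235, 265, 266, 267 and 251 CPM in GFP males (0.06, adjusted p = 0.899). Without the 3 male heads that stood apart it was 0.18 (adjusted p = 0.0832), and without dsx-labelled replicate 1 alone, the head library least like its group, 0.21 (adjusted p = 0.0391).

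In females 0 of the 21 tests of the label were called by edgeR, 7 for each gene, with 0.0809% or less of all genes called at any stage (0% in embryos, 0.0496% at day 7, 0.0809% at day 9, 0% at day 11, 0.0412% in heads, 0.017% in thoraces and 0.00809% in abdomens). Tra at 3 stages and Fru at 1 had an unadjusted p below 0.05, and DESeq2 also called 0 of the 21. For Fru at day 11 the exact permutation test on log2 CPM gave 0.28 with p = 0.0317, with overlap. In embryos edgeR called 0 of 12003 genes by label in females, with 1914 at an unadjusted p below 0.05 and 181 called by DESeq2, and 0 in males, with 372 and 1. At day 11 it called 0 of 12400 in females, with 1030 and 59. The level of Tra stood at 233, 233, 241, 259.9 and 237 CPM in dsx-labelled female embryos, against 139, 211, 133, 182 and 171 CPM in GFP female embryos. These did not overlap and gave an exact permutation p of 0.00794, but an edgeR adjusted p of 0.178 for a log2 fold change of 0.51. Day 11 Dsx in females was 106, 139, 153, 103 and 97.8 CPM in the dsx-labelled group, against 118, 108, 114, 107 and 103 CPM in the GFP group, which overlapped (0.11, adjusted p = 0.851). The label effect on Dsx differed between males and females at day 7 (interaction 0.46, adjusted p = 0.043), day 9 (0.78, adjusted p = 0.000824) and day 11 (1.20, adjusted p = 0.000686), and that on Fru in abdomens (-0.31, adjusted p = 0.0477), while edgeR and DESeq2 called 0 of 7 for Tra, with 3 at an unadjusted p below 0.05. Of all genes, 0% were called for this interaction in embryos (1161 at an unadjusted p below 0.05 and 4 by DESeq2), 0.314% at day 7, 0.542% at day 9, 0.218% at day 11, 4.1% in heads, 12.7% in thoraces and, highest, 25.4% in abdomens. At day 7 the interaction was 0.39 with column totals and was not called (adjusted p = 0.51), and leaving out any 1 replicate lost the call (adjusted p of at most 0.241). The call of Fru in abdomens was lost without replicate 1, 3, 4 or 5 (at most 0.16).

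Ratios of reads between 2 of the genes within 1 library depend on neither depth nor scaling, and only their change between groups is read, since each also depends on transcript length. They were compared in 84 exact permutation tests, adjusted together by the Benjamini-Hochberg method. Tra over Dsx was lower in males than in females at 7 of 7 stages in both labels, without any overlap (exact permutation p = 0.00794 and adjusted p = 0.0152 for each). In GFP embryos it was 1.05 ± 0.0757 in males and 4.22 ± 0.829 in females (SD, n = 5 each), and in GFP abdomens 0.0482 ± 0.00451 in males and 0.647 ± 0.0581 in females. On the log2 scale the difference was -1.99 ± 0.13 in embryos and -3.75 ± 0.08 in abdomens (SE). The sexes lay farther apart in this ratio in abdomens than for Tra alone, since Dsx was higher in male abdomens. How often ratios of other gene pairs differ by sex or label was not computed, for this or the ratios below. Among single genes, 0.0417% (embryos) to 86.8% (abdomens) were called by sex in GFP wasps, as given with Tra above.

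Between dsx-labelled and GFP males, Tra over Dsx was lower at day 7 (0.0879 ± 0.00822 against 0.115 ± 0.00873), at day 9 (0.0591 ± 0.0075 against 0.102 ± 0.00937) and at day 11 (0.0568 ± 0.00386 against 0.146 ± 0.0106), with no overlap at these 3 stages (SD, n = 5 each, exact permutation p = 0.00794). In abdomens it was 0.0402 ± 0.00496 in dsx-labelled and 0.0482 ± 0.00451 in GFP males, which overlapped (exact permutation p = 0.0159, adjusted p = 0.0272). In females 0 of 7 stages were called, with 1 (day 7) at an unadjusted exact p below 0.05. Fru over Dsx was lower in dsx-labelled than in GFP males at day 11, at 0.233 ± 0.0133 against 0.543 ± 0.0451, and in abdomens, at 0.119 ± 0.0101 against 0.173 ± 0.00416, both without overlap (exact permutation p = 0.00794). At day 9, where both genes were higher in dsx-labelled males, Fru over Dsx was 0.439 ± 0.197 in dsx-labelled and 0.401 ± 0.122 in GFP males (exact permutation p = 0.802).

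**Figure D3:**
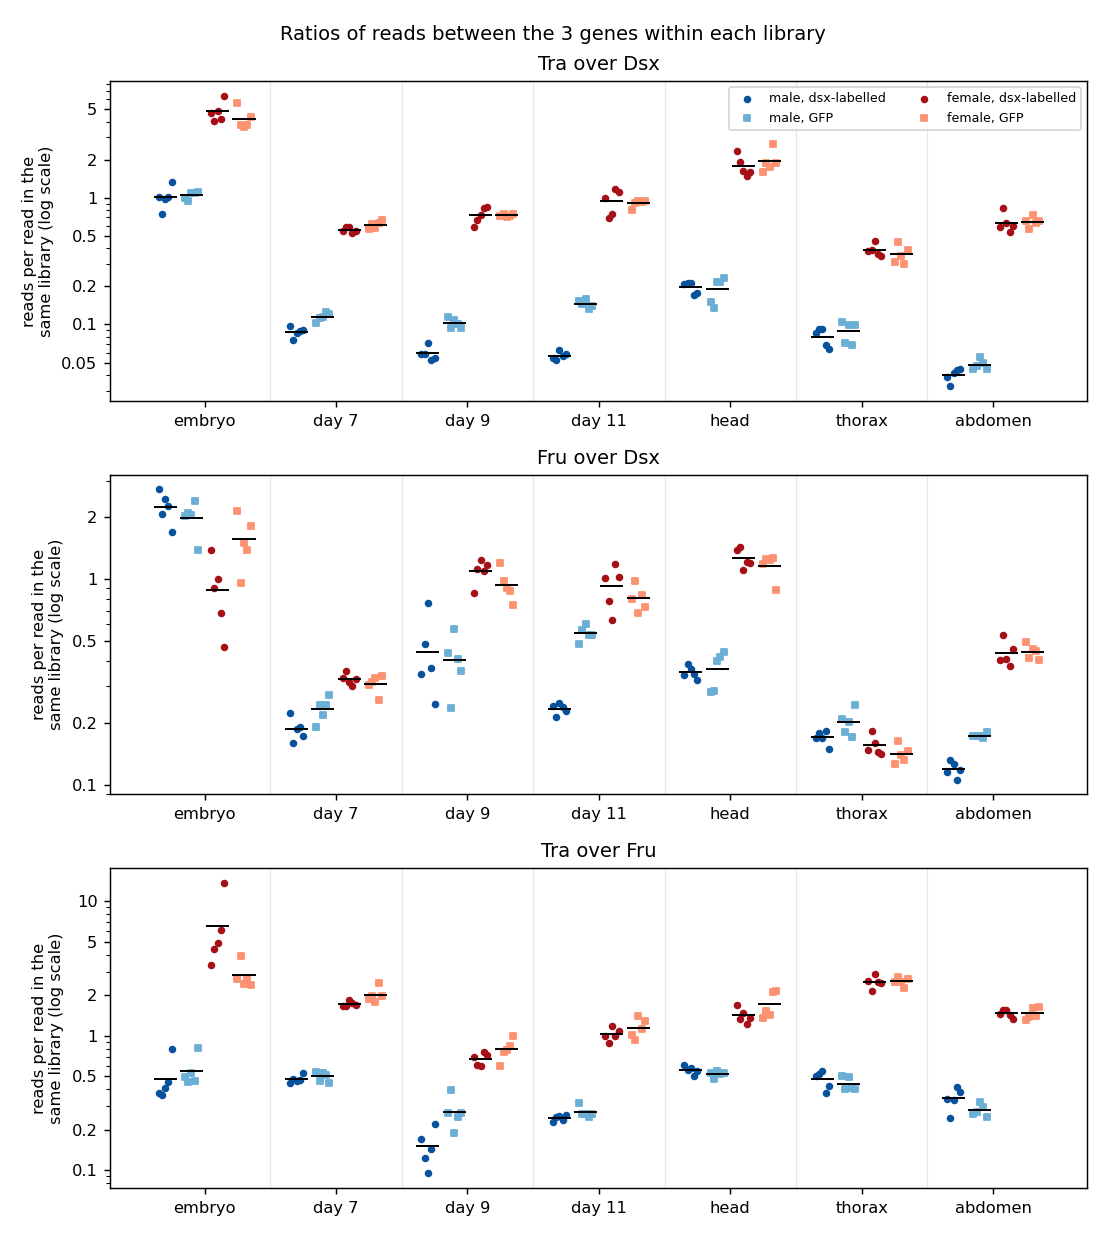
Reads of 1 gene per read of another in the same library (log axis) by stage or body part, with a point per library and a bar for each group mean. Tra over Dsx and Tra over Fru are lower in males at all 7 stages, and Tra over Dsx lies lower in dsx-labelled than in GFP males at days 7, 9 and 11.

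Fru over Dsx was the ratio whose sex difference turned with the body part. In GFP thoraces it was 0.2 ± 0.028 in males and 0.141 ± 0.0144 in females, higher in males, and in GFP heads 0.364 ± 0.0755 in males and 1.16 ± 0.155 in females, lower in males (SD, n = 5 each), with no overlap in either (exact permutation p = 0.00794). It was lower in GFP males also at days 7, 9 and 11 and in abdomens, 5 of 7 stages in all, and embryos were not called (exact permutation p = 0.151). In dsx-labelled embryos it was higher in males, at 2.23 ± 0.393, than in females, at 0.885 ± 0.346 (exact permutation p = 0.00794), and thoraces of that label were not called. Tra over Fru was lower in males at 7 of 7 stages in both labels. It differed by label in female embryos (6.54 ± 4.19 in dsx-labelled and 2.82 ± 0.632 in GFP), in day 7 females (1.73 ± 0.0826 and 2.02 ± 0.266) and in day 9 males (0.15 ± 0.0473 and 0.272 ± 0.0749), each with overlap (exact permutation p = 0.0159, adjusted p = 0.0272). Each of these 3, and Tra over Dsx in male abdomens, was lost on leaving out some single libraries.

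In male heads Tra over Fru varied less than the levels of the 2 genes. The ratio was 0.557 ± 0.0407 in dsx-labelled and 0.519 ± 0.0267 in GFP males (SD, n = 5 each), although Tra ran from 31.8 to 65.1 CPM and Fru from 52.3 to 116 CPM over these 10 libraries. The 3 heads that stood apart held the 3 lowest values of both genes. Their Tra over Fru was 0.608 in dsx-labelled replicate 1, 0.528 in GFP replicate 1 and 0.474 in GFP replicate 2, against 0.498 to 0.579 in the other 7.

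The 3 genes were then followed within groups, as the deviation of each library's log2 CPM from its group mean, with p-values from 100000 permutations of libraries within groups, adjusted over 27 relations. Over all 140 libraries Dsx and Tra deviated together (Pearson r = 0.46, adjusted permutation p = 0.00081, Spearman rho = 0.40, adjusted p = 0.00027), with the same sign in 90 libraries. Dsx and Fru gave r = 0.39 (adjusted p = 0.00412) and rho = 0.37 (adjusted p = 0.0018), and Tra and Fru r = 0.36 (adjusted p = 0.00225) and rho = 0.38 (adjusted p = 0.00162). Without the 2 libraries farthest out on the first gene, r was 0.34 for Dsx and Tra, 0.29 for Dsx and Fru and 0.33 for Tra and Fru. Without replicate 1 of every group, r was 0.28 for Dsx and Tra, 0.30 for Dsx and Fru and 0.21 for Tra and Fru, the lowest values over the fits that left out 1 replicate. The library total had no such relation with any of the 3 genes (r between -0.09 and 0.19, adjusted permutation p of 0.172 or more). All levels of a library share its denominator, and with TMM factors the 3 values were 0.40, 0.31 and 0.25. Their unadjusted permutation p was 0.00203, 0.0104 and 0.0368, against 3e-05, 0.00061 and 0.00025 with CPM. The values by stage below were not repeated with TMM factors.

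The relations were then tested stage by stage, each against no relation, and differences between stages were not tested. Dsx and Tra were related at day 7 (r = 0.83, adjusted permutation p = 0.00135, the same sign in 19 of 20 libraries, r = 0.80 without the 2 farthest) and in embryos (r = 0.61, adjusted p = 0.0159, 0.52 without the 2 farthest). Dsx and Fru were related in thoraces (r = 0.75, adjusted permutation p = 0.0127, 0.63 without the 2 farthest). Tra and Fru were related in thoraces (r = 0.68, adjusted permutation p = 0.00643, 0.60 without the 2 farthest). The heads fall into the 3 male libraries that stood apart and the rest, so no value is given for them alone. Without the male heads, r over the other libraries was 0.39 for Dsx and Tra, 0.29 for Dsx and Fru and 0.18 for Tra and Fru (permutation p = 0.0341 for the last). At day 11 none of the 3 pairs was called (r between -0.24 and -0.09, adjusted permutation p of 0.68 or more). None was called at day 9 (adjusted permutation p of 0.231 or more) or in abdomens (0.0741 or more) either. The pairs left unnamed for embryos, day 7 and thoraces were likewise not called (adjusted permutation p of 0.156 or more). In females alone Tra and Fru gave r = 0.14 (permutation p = 0.181), against 0.50 in males alone (permutation p = 0.0005). The male value includes the male heads, without which r over both sexes was 0.18. Males without heads were not run alone, and the difference between the sexes was not tested.

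**Figure D4:**
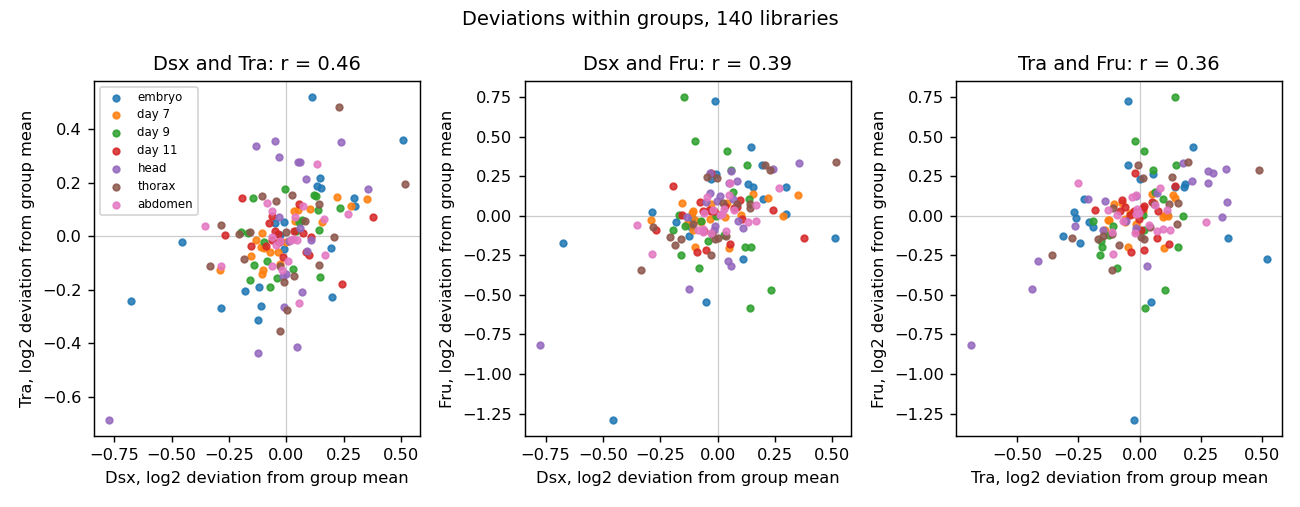
Deviation of each of the 140 libraries from its group mean, in log2 CPM, for 2 genes at a time (horizontal and vertical axes), coloured by stage. Points run from lower left to upper right in each panel (r = 0.46, 0.39 and 0.36), with 1 male head library at the lower left.

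Genes whose course over the 14 GFP groups was most like that of each member were taken from 11262 genes by the Pearson correlation of log2(CPM + 1) group means, as a description. For Dsx these were LOC100120604 (r = 0.95), LOC100119022 (0.95) and LOC100117832 (0.94), with r of 0.89, 0.84 and 0.89 over the 14 dsx-labelled groups. For Tra they were LOC100678462 (0.78), LOC100121964 (0.77) and LOC107981921 (0.67), with 0.77, 0.78 and 0.63 in the dsx-labelled groups. Fru was most like LOC103317310 (0.90), a long non-coding RNA that overlaps it in the annotation, LOC116417134 (0.81), another long non-coding RNA, and LOC100121912 (0.80), with 0.88, 0.67 and 0.83 in the dsx-labelled groups. By r in the dsx-labelled groups LOC116417134 had rank 171 for Fru and LOC100119022 rank 72 for Dsx, and the others had ranks 1 to 17. No source used here states the use of strand in the counting, so it is uncertain how reads from the overlap of Fru and LOC103317310 were counted. Of the other genes of the pathway that were sought by symbol, Nvu1-fru, a further fruitless entry, was matched. It had between 0 and 3 reads in a library and was not tested, and the rest are not analysed here.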

How the data were processed

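RNA was extracted from pooled whole animals or body parts and sequenced as paired reads, per the labels. The deposited table holds raw counts of reads per gene for 140 libraries, made by the authors with HISAT2 2.0.5 and HTSeq 0.6.1, per the submitters' processing notes. Which genome build, annotation and strand setting they used was not given in the sources used here. All columns were matched to the labels by name. From these counts, CPM of the column total, ratios and deviations were computed with Python 3.11.15, NumPy 2.4.6, pandas 2.3.3 and SciPy 1.17.1, and figures with matplotlib 3.10.9.

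Genes were filtered with filterByExpr (minimum count 10) and tested with edgeR 4.0.16 (glmQLFit and glmQLFTest, R 4.3.3) with TMM factors and Benjamini-Hochberg adjustment over all genes, at 0.05. Each stage was fitted on its 20 libraries (11782 to 12400 genes) and stages were compared in a fit of all libraries (13713 genes). The members, lists and tests were chosen with earlier results of these data known. The genes named are Dsx, Tra and Fru, pathway genes and markers matched by symbol, and for each member the 3 genes of at least 1 CPM most like it. The lists had been meant to be matched also by product name, which the reference table lacks. Replicate numbers are shared by all groups. The labels state no pairing by them. Only for dsx-labelled against GFP males of day 11 did all 5 same-numbered pairs of deviations correlate above 0.1, a threshold set here. Male embryos by label had a higher median r (0.72 against 0.48), with 3 pairs above 0.1. Pairing was thus not established, and a replicate block changed no call for day 11 males by label. Alternatives were column totals, RLE factors, DESeq2 1.42.0, no filter, only the groups compared, a replicate block and libraries left out. The edgeR and correlation steps were tested on simulated data.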

Additional observations from a re-analysis of the deposited data

Results flagged for a closer look

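Among 84 sets of 5 values, 1 for each of the 3 genes in each of the 28 groups, 3 held a library whose gap to its neighbour was large for the range of its group, and chance gives about 1 in 20 sets. These were Dsx in female dsx-labelled heads, where replicate 3 had 217 CPM with the nearest library at 199 CPM, Fru in male GFP pupae of day 11, where replicate 1 had 54.2 CPM with the nearest at 64.1 CPM, and Fru in male GFP abdomens, where replicate 3 had 75.5 CPM with the nearest at 80.4 CPM.

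The effect of the dsx label differed between males and females by a tested interaction, in log2 units, for Dsx at day 7 (0.46), day 9 (0.78) and day 11 (1.20) and for Fru in abdomens (-0.31), out of 21 interactions tested. Of all genes, 0.314% were called at day 7, 0.542% at day 9, 0.218% at day 11 and 25.4% in abdomens. The calls of Dsx at day 7 and Fru in abdomens were lost without some replicates, as given above. The label effect on Dsx in males was larger at day 11 than at day 7 by 0.86, a call lost without replicate 3.

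The difference of GFP males over GFP females changed between stages in 15 of 18 tests. Of all genes, such a change was called in 13.1% for day 7 against embryo, 25.3% for day 9 against day 7 and 38.4% for day 11 against day 9. Between body parts the share was 24.5% for head against thorax, 69.3% for abdomen against thorax and 71.5% for head against abdomen. Some of the 15 calls were lost with other scaling or without a replicate, as given above. For Dsx the change was 2.54 for abdomen against thorax, 0.88 for head against thorax, -1.67 for head against abdomen and 0.44 for day 11 against day 9. For Tra it was 0.81 for abdomen against thorax, -0.47 for head against thorax, -1.29 for head against abdomen, -0.46 for day 9 against day 7 and 0.63 for day 11 against day 9. For Fru it was 0.68 for abdomen against thorax, -1.30 for head against thorax, -1.98 for head against abdomen, -0.71 for day 7 against embryo, -0.88 for day 9 against day 7 and 1.12 for day 11 against day 9.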

How the results depend on the processing

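The sex difference of Tra was called at 7 of 7 stages in both labels under every alternative run. Of single edgeR values called in the main or another setting, 110 kept direction and side of the threshold with column totals, 127 with RLE factors, 129 with DESeq2 and 127 without the filter. Column totals reversed 7: Fru in dsx-labelled male over female abdomens (-0.21), Fru in abdomen over thorax in dsx-labelled (0.15) and GFP females (0.14), Tra from day 9 to day 11 in dsx-labelled (-0.23) and GFP males (-0.28), and Dsx from day 9 to day 11 in dsx-labelled males (-0.18) and from day 7 to day 9 in dsx-labelled females (0.0766). Dsx in dsx-labelled over GFP male heads ran from -0.0025 to 0.18 over fits without 1 replicate. Stages called by label in males were 0 for Tra with column totals and 0 with only the 2 groups compared (main 1), and 1 for Fru with only the 2 groups compared (main 3). With only the groups compared, 2 of 3 differences of the Dsx label effect between ages were called (main 1). Without the library least like its group, chosen after the data were seen, Tra had 1 interaction called (main 0) and Fru 2 (main 1). Over fits without 1 replicate, the numbers called ran from 3 to 5 for the course of Tra in GFP males, 0 to 1 for the Dsx label effect between ages, 0 to 1 for Tra and 0 to 3 for Fru by label in males, 2 to 4 in GFP and 3 to 6 in dsx-labelled wasps for Dsx by sex, and 0 to 1 for the Fru interaction. The correlations ran from 0.281 to 0.532 for Dsx and Tra, 0.296 to 0.460 for Dsx and Fru and 0.210 to 0.521 for Tra and Fru, which was 0.135 in females alone. With only the groups compared, the steps from day 9 to day 11 called as higher were Dsx (0.26) and Tra (0.22) in dsx-labelled males and Tra (0.15) in GFP males, none of them called in the fit of all libraries. The replicate block, for which the labels state no pairing, left 132 single values as they were. It ended 2 calls of Dsx at day 7. These were males over females in dsx-labelled larvae (0.21, edgeR adjusted p = 0.058) and the interaction (0.46, adjusted p = 0.0911). Blocked sign-flip tests of the ratios are not reported, since 5 pairs cannot pass the threshold. The causes were not tested.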

Other observations

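Over the 14 groups of each label, the group means of Tra and Fru were correlated at r = 0.40 in dsx-labelled and 0.57 in GFP wasps, those of Dsx and Fru at 0.16 in dsx-labelled and 0.21 in GFP wasps, and those of Dsx and Tra at -0.24 in dsx-labelled and -0.02 in GFP wasps. These are descriptions over stages that differ in tissue and in scaling. Within the 7 GFP groups of a sex, Tra and Fru gave 0.39 in males and 0.66 in females.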
